A study of Homo sapiens with 9 samples.

Results

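Genes of pre-mRNA splicing and mRNA 3′ end processing were followed in DLD1 cells after siRNA-mediated knockdown (Kd) of Lamin A/C or Lamin B2. The members were chosen by name alone: every array probe whose gene name begins with HNRP, HNRNP, SFRS, SF3A, SF3B, PRPF, SNRP, CPSF or CSTF. The rule found 87 genes with 166 probes, out of 31033 gene names and 50238 probes on the array, and 50 of these genes carried several probes. All 87 matched a gene of a RefSeq table of GRCh38.p14, where 44 now have another symbol (HNRPK is now HNRNPK, SF3B14 is SF3B6). A prefix does not fix a role: CPSF3L is now INTS11, an Integrator subunit, and 2 of the names, HNRNPA3P1 and HNRPA1P5, are pseudogenes. Gene names below are those of the array, and probes are given by the last part of their identifier.

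DLD1 is a human colorectal cancer cell line. RNA of 9 cultures was hybridized to single-color Agilent arrays, 1 culture on each. Lamin A/C Kd, Lamin B2 Kd and untreated cells (Control) were represented by 3 cultures each, and siRNA was given at 100 nM over 48 h. The controls received no siRNA and no array came from cells given a control siRNA, so lamin loss and transfection cannot be told apart in a comparison with the controls. The knockdowns were therefore also compared with each other. All cultures are of 1 cell line, and as bulk RNA they do not tell fewer cells of a kind from less RNA per cell.

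The nascent transcript is coated by hnRNP proteins, many of which influence which splice sites are used. The SR proteins (SFRS) promote splice site recognition, the small nuclear ribonucleoproteins (SNRP, with SF3A and SF3B in the U2 particle) assemble on the intron, and the PRPF proteins drive the later rearrangements of the spliceosome. At the end of the message, the cleavage and polyadenylation specificity factor (CPSF) reads the polyadenylation signal and the cleavage stimulation factor (CSTF) binds the downstream element.

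Both knockdowns reached their targets. The 2 LMNA probes fell by 3.83 and 3.80 on the log2 scale upon Lamin A/C Kd, and the LMNB2 probe fell by 2.32 upon Lamin B2 Kd. Between 65.6 and 74.1% of the spots of an array were well above background, and epithelial keratins were bright on every array while PTPRC and COL1A2 were above background on at most 1 array of any group. The markers of other cell types were PTPRC, COL1A1, COL1A2, PECAM1 and VIM, with 12 probes. Of these, 4 were well above background on all 3 arrays of the controls or of Lamin A/C Kd. These 4 lie among the probes of COL1A1, PECAM1 and VIM, since PTPRC and COL1A2 did not reach this. All 11 colon epithelial probes did. Lamin B2 Kd replicate 3 stood apart: it was on a slide of its own and its deposited values carry fewer digits. On 87.5% of its spots the processed signal was nearly equal to the background-subtracted signal, against 7.66 to 26.6% on the other arrays. Results of members that rest on this replicate are given with and without it.

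Signals are log2 of the processed intensity minus the median of the array, so a difference of 1 is a 2-fold change. A probe entered a comparison if either group had it well above background on each of its 3 arrays, which 162 of the 166 probes met every time. The other 4 were the HNRNPG-T probe, 1 of 2 HNRPM probes, 1 of 2 CPSF2 probes and the SNRPN probe. A probe is said to have risen or fallen where limma's moderated test gave a Benjamini-Hochberg adjusted p under 0.05 over all probes tested. Errors after ± are SD over 3 arrays, and SE is that of the fitted difference.

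HNRPA3 carried the largest falls among the members upon Lamin A/C Kd. HNRPA3 (chromosome 2) encodes an hnRNP of the A/B group with RNA-recognition motifs, related to HNRPA1. The array holds 9 probes for it and 2 for HNRNPA3P1, a transcribed pseudogene of chromosome 10. Such copies are near-identical to their parent gene, so the signals of the gene and its pseudogene may be shared. The following 3 HNRPA3 probes are shown because neighbours among them share a run of bases. The capitals mark these runs, of 20 bases for the first pair and of 19 bases for the second. The second run stops 3 bases before the end of P488588. The next base differs between the 2 probes, and the last 2 bases of P488588 match P269895 again.
P488586: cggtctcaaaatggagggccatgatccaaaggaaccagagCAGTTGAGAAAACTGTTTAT
P488588: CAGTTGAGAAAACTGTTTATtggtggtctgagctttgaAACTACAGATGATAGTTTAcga
P269895: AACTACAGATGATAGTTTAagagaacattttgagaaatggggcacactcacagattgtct
No other pair among the 11 probes shared a run of 18 bases. P269895 also shares a run of at least 20 bases with a probe named LOC732411.

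Of these 11 probes, 10 fell upon Lamin A/C Kd, by 1.25 to 1.65 on the log2 scale (2.38- to 3.14-fold), with adjusted p between 0.000318 and 0.0353 (limma). Probe P86660 read 5.64, 5.63 and 5.62 in the controls, 3.78, 4.05 and 4.11 upon Lamin A/C Kd, and 5.31, 5.37 and 5.22 upon Lamin B2 Kd. The Lamin A/C Kd arrays lay far below both other groups, with a difference to the controls of -1.65 (SE 0.12). The bright probe P17163 read 9.60, 9.61 and 9.57 in the controls, 8.12, 8.23 and 8.37 upon Lamin A/C Kd, and 9.59, 9.38 and 9.10 upon Lamin B2 Kd. Its groups were again apart upon Lamin A/C Kd, where it fell by 1.35 (SE 0.14, adjusted p = 0.0014).

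The pseudogene probes behaved likewise. HS_3845 read 5.98, 5.89 and 6.08 in the controls, 4.26, 4.43 and 4.53 upon Lamin A/C Kd, and 5.90, 5.74 and 5.81 upon Lamin B2 Kd, a fall of 1.58 (SE 0.12, adjusted p = 0.000349) in the first knockdown. HS_3844 fell by 1.38 (SE 0.29, adjusted p = 0.0203), with a wider spread in the controls (SD 0.42). The eleventh probe, P706314, did not pass the test: its difference was -0.64 (SE 0.30, adjusted p = 0.239), and Control replicate 2, at 4.68, lay below all 3 Lamin A/C Kd arrays while the other 2 controls were at 5.89 and 5.96.

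None of the 11 probes was called upon Lamin B2 Kd, where the 10 probes above differed from the controls by -0.54 to 0.31 and adjusted p over all 11 lay between 0.148 and 0.788. Between the knockdowns, 7 of the 11 were lower in Lamin A/C Kd than in Lamin B2 Kd, by 1.01 to 1.68 on the log2 scale. The 3 probes shown above did not pass this test, with adjusted p between 0.093 and 0.155, and 1 array decided it. P488586 read 5.05 and 4.66 in Lamin B2 Kd replicates 1 and 2 but 3.61 in replicate 3, a value within the range of Lamin A/C Kd (3.32 to 3.76). Without that array the differences between the knockdowns were -1.30, -1.15 and -1.10 for P488586, P488588 and P269895, with adjusted p of 0.00219, 0.00215 and 0.00422.

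**Figure D1:**
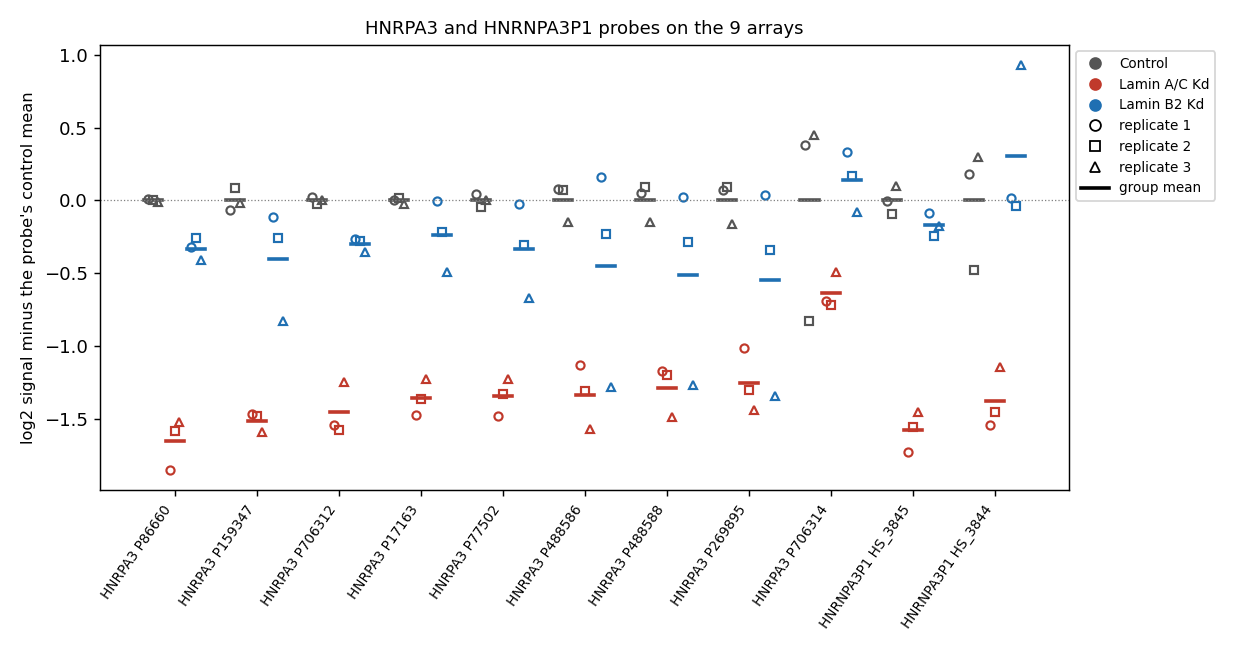
Signals of the 9 HNRPA3 and 2 HNRNPA3P1 probes on each array, as log2 signal minus the probe's mean over the controls. Points are arrays (colour for group, symbol for replicate) and bars are group means; 10 of the 11 probes fell by 1.25 to 1.65 upon Lamin A/C Kd (red), and Lamin B2 Kd replicate 3 (blue triangles) lies among the Lamin A/C Kd arrays in P488586, P488588 and P269895, which share runs of bases.

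The falls of 6 probes, P17163, P86660, P706312, P159347, P77502 and HS_3845, held under every alternative run on them, which included each scaling, the authors' table where it lists the probe and each array left out. Their fall upon Lamin A/C Kd ranged from -1.71 to -1.22 over these settings. The calls of P488586 and P488588 were lost with no filter on dim probes and when any 1 control or Lamin A/C Kd array was left out, in the latter case with adjusted p of 0.0729 to 0.106 and differences of -1.18 to -1.44. HS_3844 lost its call when replicate 1 or 3 of the controls, or replicate 1 or 2 of Lamin A/C Kd, was removed, at differences of -1.34 to -1.23, and also with normexp background correction or no filter on dim probes. The fall of P269895 upon Lamin A/C Kd was not followed under the alternatives.

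HNRPK, on chromosome 9, encodes a poly(C)-binding hnRNP with KH domains, and its 2 probes moved in opposite directions. Probe P389517 is shown because it was the 1 member probe that rose in both knockdowns. The capitals mark the 16 bases it shares with the forward primer of 1 of the 2 HNRPK primer pairs that the study lists for qRT-PCR, which is printed after it.
HNRPK P389517: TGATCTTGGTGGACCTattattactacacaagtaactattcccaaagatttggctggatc
HNRPK forward primer: atggTGATCTTGGTGGACCT

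P389517 read 5.26, 5.15 and 5.22 in the controls, 7.51, 7.39 and 7.54 upon Lamin A/C Kd, and 7.52, 7.01 and 7.35 upon Lamin B2 Kd. It rose by 2.27 (SE 0.14, adjusted p = 0.000225) and by 2.08 (SE 0.14, adjusted p = 0.000897), and neither knockdown overlapped the controls. The rise upon Lamin B2 Kd was 2.06 without replicate 3 (adjusted p = 0.00241). The second probe, P380919, read 8.44, 8.44 and 8.51 in the controls, 7.52, 7.65 and 7.68 upon Lamin A/C Kd, and 8.08, 8.16 and 7.73 upon Lamin B2 Kd. It fell by 0.84 upon Lamin A/C Kd (SE 0.13, adjusted p = 0.0074), and its difference upon Lamin B2 Kd was -0.47 (SE 0.13, adjusted p = 0.0814).

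Within an array, P389517 lay 3.18 to 3.29 below P380919 in the controls, 0.01 to 0.26 below it upon Lamin A/C Kd and 0.38 to 1.15 below it upon Lamin B2 Kd. The gap between the probes thus narrowed on all 6 knockdown arrays. The level of HNRPK as a gene is not settled by these arrays. For its qRT-PCR the study designed primer set A from an array feature and set B from sequence that the array lacks. The forward primer shown is of set A. The study reports that every candidate gene changed in the direction seen on its arrays, but its text gives no value for HNRPK. The authors' table gives both probes 1 joined value, whose difference from the controls was -0.07 for Lamin A/C Kd (adjusted p = 0.846) and 0.09 for Lamin B2 Kd (adjusted p = 0.68). What each probe matches in the genome was not analysed here.

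The CSTF genes, which encode the cleavage stimulation factor, held the member probe with the largest rise. CSTF2T is a chromosome 10 relative of CSTF2, the subunit that binds RNA, and its probe P12730 read 0.21, -0.22 and -0.02 in the controls, 2.36, 1.90 and 3.35 upon Lamin A/C Kd, and 1.54, 0.25 and 3.39 upon Lamin B2 Kd. It rose by 2.55 upon Lamin A/C Kd (SE 0.67, adjusted p = 0.0474), and its difference upon Lamin B2 Kd was 1.74 (SE 0.68, adjusted p = 0.17). Every knockdown array lay above every control, but Lamin B2 Kd replicate 2, at 0.25, lay close to Control replicate 1. The other CSTF2T probe, P941051, had differences of -0.29 (SE 0.14, adjusted p = 0.237) and -0.09 (SE 0.14, adjusted p = 0.709).

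The CSTF2T rise lost its call without any 1 of the controls or Lamin A/C Kd arrays (differences of 2.14 to 2.87, adjusted p of 0.081 to 0.152), and also with quantile normalization, with the 75th percentile as the shift and with no filter on dim probes. In the authors' table, where both probes share a value, the differences were 0.18 and 0.24. The difference upon Lamin B2 Kd turned on single arrays: it was 0.91 without replicate 3 (adjusted p = 0.332) and 2.48 without replicate 2 (adjusted p = 0.0386).

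The other subunits had smaller differences. CSTF3, the scaffold of the factor, fell upon Lamin B2 Kd in probe P98310, from 6.61, 6.91 and 6.75 to 6.24, 6.15 and 6.22 (-0.55, SE 0.12, adjusted p = 0.0437), with Lamin A/C Kd at 6.58, 6.46 and 6.70. The Lamin B2 Kd arrays lay below every other array. The call held without Lamin B2 Kd replicate 3 (adjusted p = 0.0479) and was lost without any other array of the comparison; over all arrays left out in turn the difference was -0.63 to -0.47. The call was also lost with the 75th percentile as the shift (-0.36, adjusted p = 0.141), with quantile normalization (-0.32, adjusted p = 0.214), in the authors' table, with no filter on dim probes, with the replicate block and with only the groups compared. The second CSTF3 probe differed by -0.69 (adjusted p = 0.134) upon Lamin B2 Kd, and by -0.41 (adjusted p = 0.214) without replicate 3. CSTF1 and CSTF2 were not called in either knockdown, with differences between -0.33 and 0.04.

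**Figure D2:**
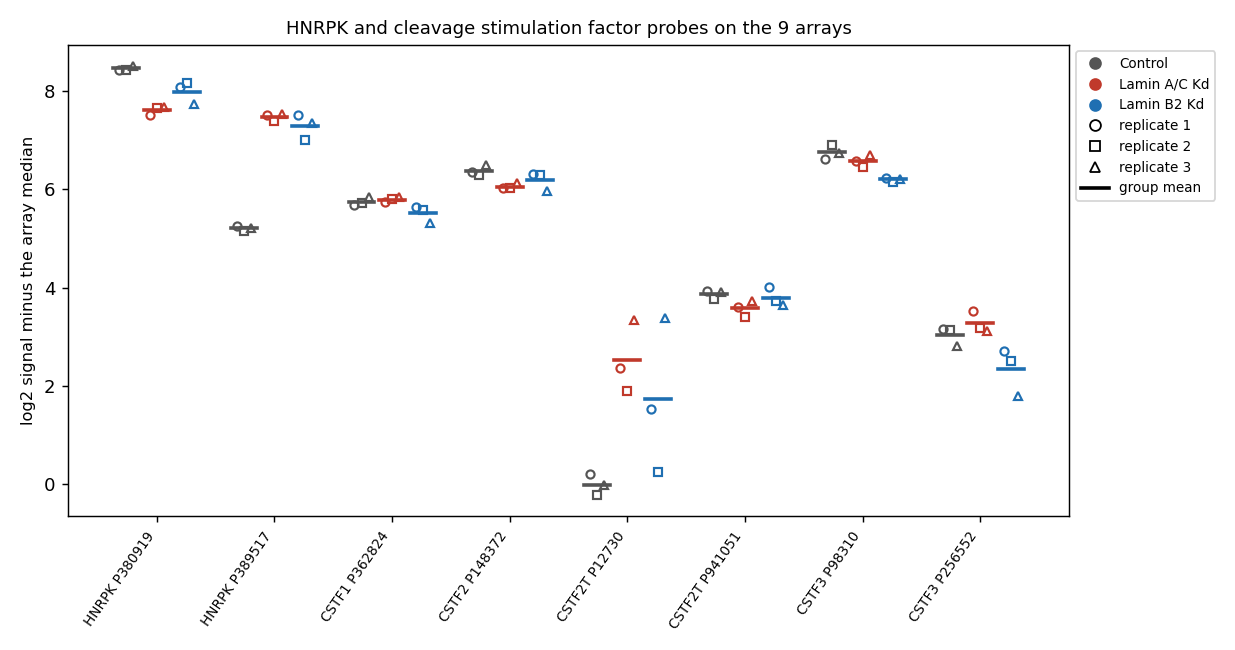
Log2 signal minus the array median for both HNRPK probes and all CSTF probes on each array. Points are arrays (colour for group, symbol for replicate) and bars are group means. HNRPK P389517 rose from about 5.21 to 7.48 upon Lamin A/C Kd and to 7.29 upon Lamin B2 Kd, while P380919 was called lower upon Lamin A/C Kd only. CSTF2T P12730 spread from 0.25 to 3.39 upon Lamin B2 Kd.

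Upon Lamin A/C Kd, 24 of the 162 tested member probes fell (14.8%), against 6.15% of all 33131 probes tested, and 3 rose (1.85%), against 3.0% of all probes. The 24 came from 12 genes, and 10 of them were the HNRPA3 and HNRNPA3P1 probes. Leaving these 11 probes out, a choice made after the data were examined, 14 of 151 fell (9.27%). Members were also bright: the middle 80 of them had a mean level between 3.50 and 7.29. Of all 8828 tested probes in that range 11.1% were called in either direction. Counted in either direction, 27 of the 162 members were called, or 17 of 151 without HNRPA3 and HNRNPA3P1. The share of falls alone in that range was not taken. The study's criterion of a 2-fold change with p under 0.05, taken here as unadjusted, took 10 members down (6.17%, against 1.42% of all probes) and 3 up (1.85%, against 0.890%). All 10 were HNRPA3 or HNRNPA3P1 probes, and the 3 rises were HNRPK P389517, CSTF2T P12730 and HNRPA0 P252449.

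Outside HNRPA3 and HNRNPA3P1, the falls upon Lamin A/C Kd were smaller than 2-fold, from -0.84 to -0.45. Within the hnRNP group, 7 further probes fell, of HNRPD, HNRPDL, HNRPH1, HNRPK and HNRPU. HNRPDL, related to HNRPD, fell in both probes (-0.69 and -0.52), and P9090 went from 6.17, 6.05 and 6.14 in the controls to 5.42, 5.36 and 5.52 (adjusted p = 0.00693). Among the alternatives, only the authors' table lost this call. P9090 also fell upon Lamin B2 Kd, to 5.66, 5.68 and 5.56 (-0.49, SE 0.11, adjusted p = 0.0415). That call held without Lamin B2 Kd replicate 3 (adjusted p = 0.0409) and was lost without any other array of the comparison; over all arrays left out in turn the difference was -0.52 to -0.45. The call was also lost with the 75th percentile as the shift (-0.29, adjusted p = 0.0896), with quantile normalization (-0.27, adjusted p = 0.129), in the authors' table (-0.34, adjusted p = 0.218), and with no filter, the replicate block or only the groups compared.

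The next 3 genes were picked after their values were seen. HNRPD, which binds AU-rich elements of mRNAs, fell in 2 of 3 probes (-0.82 with adjusted p = 0.00437, and -0.52 with adjusted p = 0.0186), and the third differed by -0.39 (adjusted p = 0.0508). HNRPU, a large nuclear RNA- and DNA-binding protein, fell in 1 of 4 probes, from 4.43, 4.37 and 4.57 to 3.42, 3.60 and 3.84 (-0.83, SE 0.14, adjusted p = 0.00837), while the other 3 were not called. HNRPH1, which binds runs of G, fell in 1 of 3 probes (-0.75, SE 0.19, adjusted p = 0.0391).

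HNRPA0 was the only member besides HNRPK and CSTF2T with a rise. Its probe P252449 read 3.86, 3.27 and 5.05 in the controls, 5.69, 5.43 and 5.66 upon Lamin A/C Kd, and 5.47, 4.66 and 4.90 upon Lamin B2 Kd. The controls spread widely (SD 0.91) but stayed below the Lamin A/C Kd arrays, and the difference was 1.54 (SE 0.39, adjusted p = 0.0432). It lost its call without Control replicate 1 or 2 or any Lamin A/C Kd array (adjusted p up to 0.138), and without Control replicate 3 it was 2.03. The call was also lost in the authors' table and with no filter on dim probes. The second HNRPA0 probe differed by 0.72 (SE 0.36, adjusted p = 0.259).

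Among the small nuclear ribonucleoproteins, 4 of 22 tested probes fell upon Lamin A/C Kd (against 6.15% of all probes) and none rose (against 3.0%). These 4 came from SNRPA1 and SNRPG alone. SNRPA1, a protein of the U2 particle, fell in all 3 of its probes, by 0.59, 0.52 and 0.48 (adjusted p = 0.0167, 0.0265 and 0.0448). Its probe P28685 read 7.30, 7.25 and 7.44 in the controls, 6.71, 6.65 and 6.85 upon Lamin A/C Kd, and 6.91, 6.87 and 6.71 upon Lamin B2 Kd. Both knockdowns lay below the controls, although the difference upon Lamin B2 Kd was not called (-0.50, SE 0.12, adjusted p = 0.0508). The P28685 call was lost without any 1 control or without Lamin A/C Kd replicate 1 or 2, at differences of -0.63 to -0.54. It was also lost in the authors' table and with the replicate block. The remaining probe was that of SNRPG, a protein of the Sm ring, named after its value was seen (-0.45, SE 0.11, adjusted p = 0.0401).

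SF3B14, which contacts the branch point of the intron within the U2 particle, was the 1 SF3B gene that fell. It read 7.61, 7.67 and 7.72 in the controls, 6.90, 6.87 and 7.07 upon Lamin A/C Kd, and 7.92, 7.56 and 7.65 upon Lamin B2 Kd. It fell by 0.72 (SE 0.13, adjusted p = 0.0109), and the call was lost on removal of replicate 3 of the controls, or of replicate 1 or 2 of Lamin A/C Kd, where the difference was -0.69 to -0.68 and the adjusted p 0.0506 to 0.0569. Lamin B2 Kd overlapped the controls (0.04, SE 0.13, adjusted p = 0.847), and the knockdowns differed by -0.76 (adjusted p = 0.00518).

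PRPF3, of the U4/U6 particle, fell by 0.51 upon Lamin A/C Kd (SE 0.13, adjusted p = 0.0424), from 3.91, 3.90 and 3.78 to 3.17, 3.37 and 3.52. CPSF2, a subunit of the complex that reads the polyadenylation signal, fell by 0.48 (SE 0.11, adjusted p = 0.0263), from 4.68, 4.58 and 4.62 to 4.07, 4.11 and 4.26. In both probes the Lamin A/C Kd arrays did not overlap the controls. The PRPF3 call was lost without any 1 array of the comparison, and the CPSF2 call without any but Lamin A/C Kd replicate 3, with differences of -0.59 to -0.42 and -0.50 to -0.44. Both calls were also lost in the authors' table, with no filter on dim probes and with the replicate block. None of the 30 SFRS or 7 SF3A probes was called in either knockdown by limma at an adjusted p under 0.05. At an unadjusted p under 0.05 there were 6 SFRS and 3 SF3A probes upon Lamin A/C Kd, and 4 of each upon Lamin B2 Kd. Of all probes tested, 24.1% and 23.7% had such a p in the 2 knockdowns.

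Upon Lamin B2 Kd fewer members were called. Of 162 probes, 3 fell (1.85%, against 3.65% of all 33535 probes tested) and 1 rose (0.617%, against 0.465%). With the 2-fold criterion 3 were lower (1.85%, against 1.19% of all probes) and 2 higher (1.23%, against 0.787%). An unadjusted p under 0.05 was found for 44 member probes upon Lamin B2 Kd (27.2%, against 23.7% of all probes) and for 58 upon Lamin A/C Kd (35.8%, against 24.1%).

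The 3 probes lower by the 2-fold criterion were those of PRPF19, a ubiquitin ligase at the core of the complex that activates the spliceosome. HS_2605 read 9.60, 9.56 and 9.63 in the controls, 9.36, 9.34 and 9.04 upon Lamin A/C Kd, and 8.80, 8.61 and 7.69 upon Lamin B2 Kd. It fell by 1.23 (SE 0.26, adjusted p = 0.0367), and Lamin B2 Kd replicate 3 was the lowest array. Without that array the fall was 0.90 (SE 0.12, adjusted p = 0.0128), under 2-fold. The call was lost without any 1 control, at adjusted p up to 0.149. It was also lost in the authors' table, with no filter on dim probes, with the replicate block and with only the groups compared.

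The dimmer PRPF19 probes P52978 and HS_2604 share a run of 40 bases, so they are not independent readings. They differed by -1.24 (adjusted p = 0.137) and -1.22 (adjusted p = 0.153), and by -0.75 and -0.72 without Lamin B2 Kd replicate 3. On P52978 Lamin A/C Kd replicate 3, at 2.47, also lay apart from the other 2 arrays of its group, at 3.53 and 3.63.

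Between the knockdowns, 9 member probes were higher in Lamin A/C Kd (5.56%, against 10.6% of 33134 probes) and 10 were lower (6.17%, against 4.95%). The 10 lower ones were 7 HNRPA3 or HNRNPA3P1 probes and 1 probe each of HNRPD, HNRPU and SF3B14. Among the 9 higher ones, HNRPA1, the best known member of the A/B group, differed in 2 of 4 probes by only 0.40 and 0.45 (adjusted p = 0.0418 and 0.0246). Its P42197 read 10.34, 10.31 and 10.44 upon Lamin A/C Kd and 10.01, 9.96 and 9.78 upon Lamin B2 Kd, with the controls between them at 10.18, 10.12 and 10.14. SFRS14, now SUGP2, differed by 0.76 in 1 of 2 probes (adjusted p = 0.006), reading 3.92, 4.18 and 4.0 against 3.39, 3.35 and 3.08, a gene named after its value was seen.

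**Figure D3:**
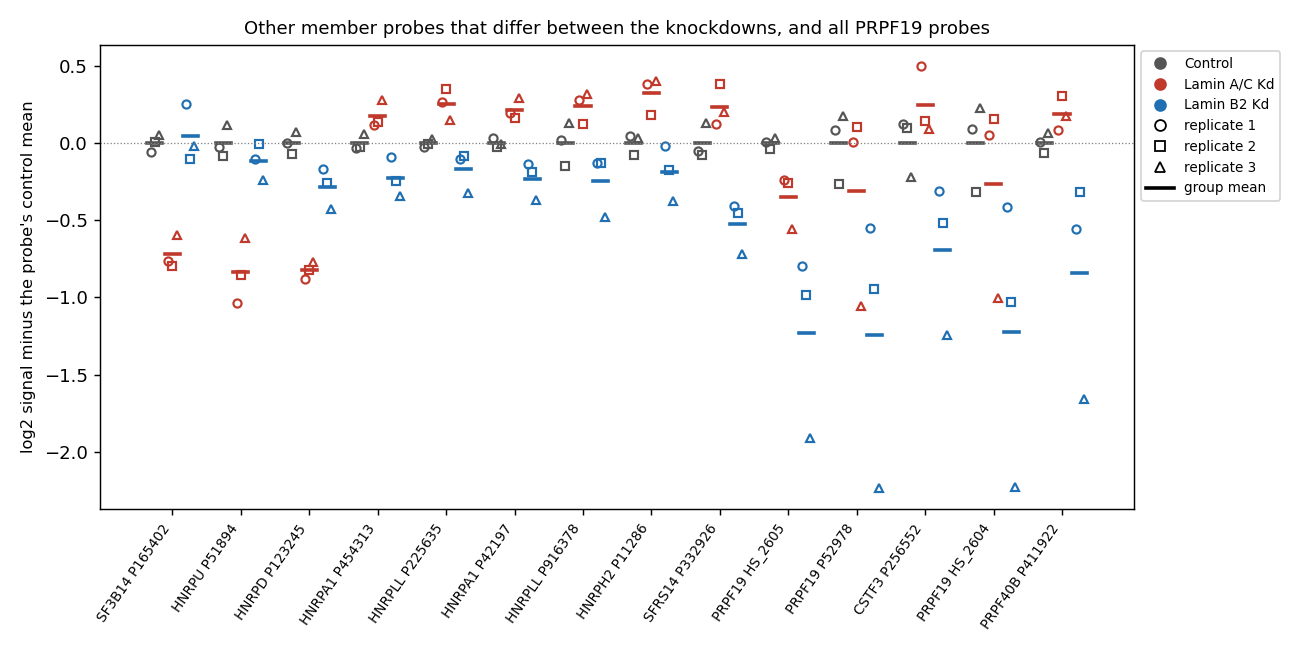
Log2 signal minus the probe's control mean for the 12 member probes outside HNRPA3 and HNRNPA3P1 that differed between the knockdowns, and for the 2 remaining PRPF19 probes. Points are arrays (colour for group, symbol for replicate) and bars are group means. Lamin B2 Kd replicate 3 (blue triangles) is the lowest array for every PRPF19 probe and for each probe called higher in Lamin A/C Kd than in Lamin B2 Kd.

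As a set, the member probes sat slightly below the controls. The median difference upon Lamin A/C Kd was -0.26, with 131 of 162 probes negative (80.9%), against a median of -0.05 and 56.6% negative over all probes tested. Upon Lamin B2 Kd it was -0.22, with 136 negative (84.0%), against -0.14 and 66.8%. For all probes of like brightness, at a level between 3.50 and 7.29, the medians were -0.11 and -0.22, and the 80 members in that range had medians of -0.29 and -0.24.

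These small offsets depend on the scaling. A shift by the 75th percentile moved the median of all probes to 0.02 upon Lamin A/C Kd and to 0.06 upon Lamin B2 Kd. The members' medians were then -0.18 and -0.03, and -0.14 and -0.03 after quantile normalization. Upon Lamin B2 Kd replicates 1 and 2 the members' medians on single arrays were -0.09 and -0.15, against -0.40 in replicate 3, and the 3 Lamin A/C Kd arrays gave -0.28, -0.24 and -0.18.

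**Figure D4:**
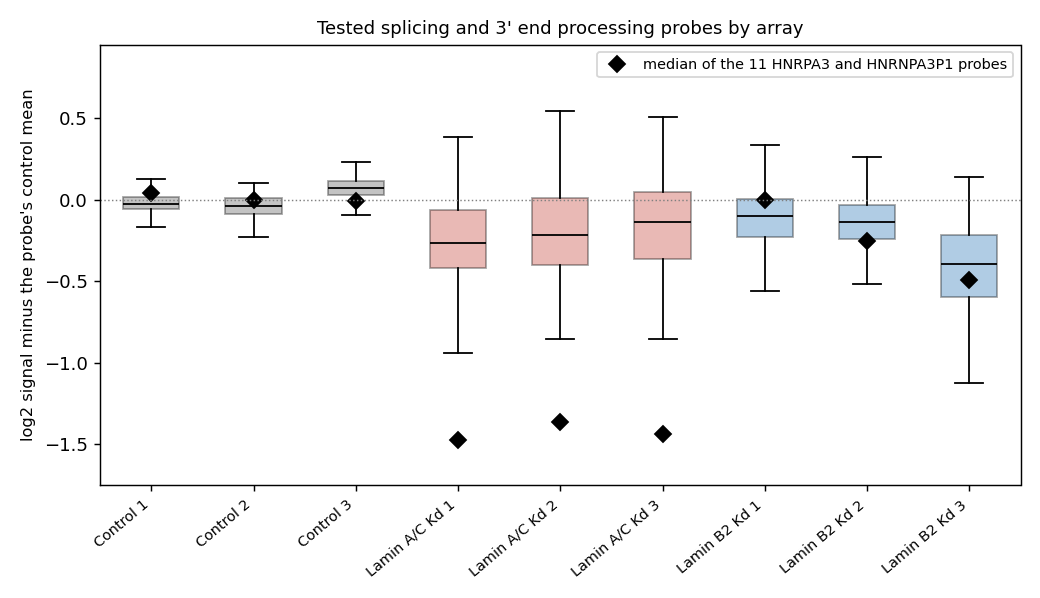
Log2 signal minus the probe's control mean on each array for the 151 tested member probes outside HNRPA3 and HNRNPA3P1 (boxes: quartiles and median, whiskers up to 1.5 times the box) and the median of the 11 HNRPA3 and HNRNPA3P1 probes (diamonds). The diamonds drop to between -1.47 and -1.36 on the 3 Lamin A/C Kd arrays only, and the box of Lamin B2 Kd replicate 3 lies lowest.

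By name prefix, the median differences upon Lamin A/C Kd ran from -0.35 for the 56 tested HNRNP probes to -0.04 for the 9 SF3B probes, with SFRS at -0.20, SNRP at -0.26, SF3A at -0.29, PRPF at -0.17, CPSF at -0.28 and CSTF at -0.07. The SF3B and CSTF medians changed sign under a shift by the 75th percentile, to 0.04 and 0.01. Upon Lamin B2 Kd the medians lay between -0.29 (SF3A) and -0.15 (SF3B), and under the same shift between -0.10 and 0.05. No prefix other than HNRNP had more than 4 probes called upon Lamin A/C Kd or more than 1 upon Lamin B2 Kd.

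**Figure D5:**
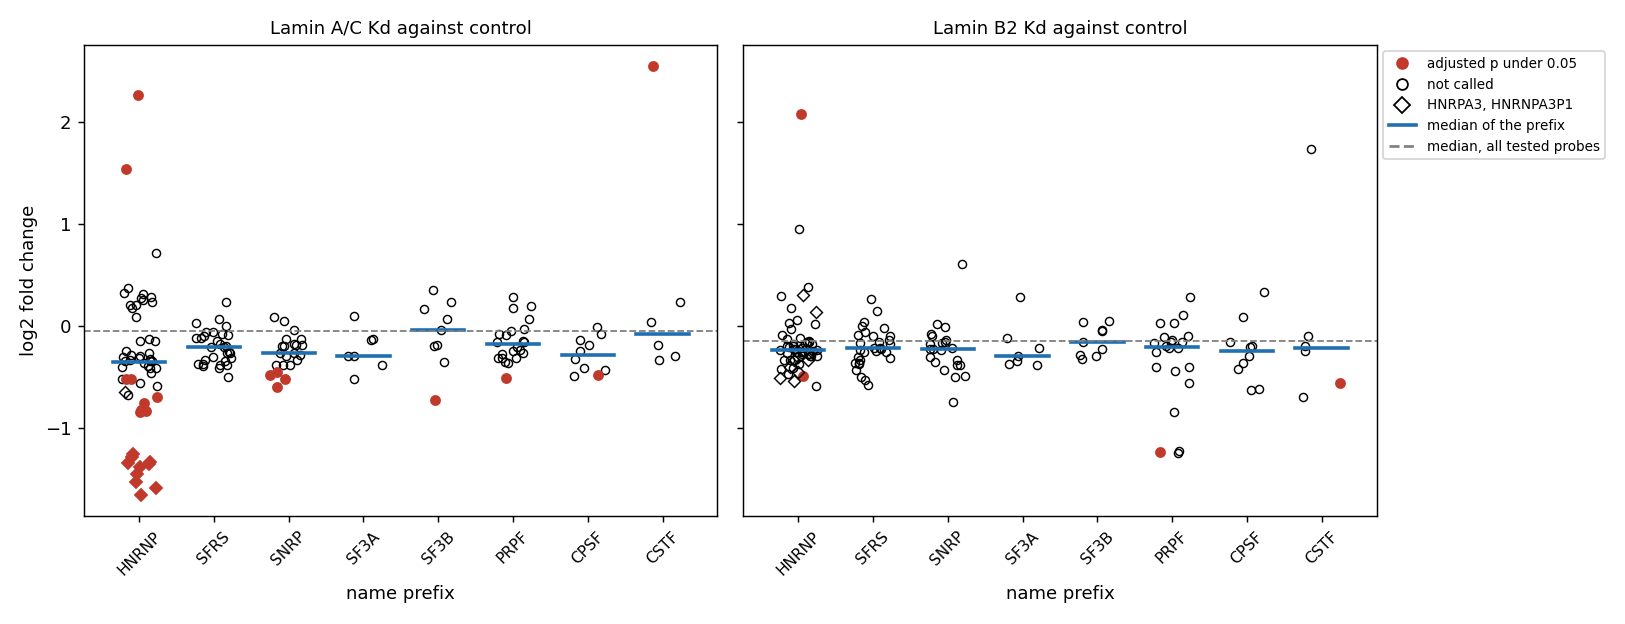
Log2 fold change of the 162 tested member probes by name prefix upon Lamin A/C Kd (left) and Lamin B2 Kd (right). Filled points have an adjusted p under 0.05, diamonds are HNRPA3 and HNRNPA3P1 probes, blue bars are medians of a prefix and the dashed line is the median of all tested probes (-0.05 and -0.14); the falls of more than 2-fold upon Lamin A/C Kd are all diamonds.

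Probes of 1 gene were compared with each other. Of the 48 genes with at least 2 tested probes, all probes had the same sign in 36 upon Lamin A/C Kd (32 lower, 4 higher) and in 31 upon Lamin B2 Kd (29 lower, 2 higher). Since 80.9% and 84.0% of all member probes were negative, nothing is read from these counts. The span between the probes of a gene had a median of 0.22 and 0.20. It was over 1 in 3 genes upon Lamin A/C Kd, HNRPK (3.11), CSTF2T (2.84) and HNRPA3 (1.01), and in HNRPK (2.55) and CSTF2T (1.83) upon Lamin B2 Kd. Of the 10 such genes with a called probe upon Lamin A/C Kd, 4 had all their probes called: HNRNPA3P1, HNRPDL, HNRPK and SNRPA1.

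Other genes of splicing and 3′ end processing, from a list of 134 symbols outside the prefixes, gave 113 genes with 214 probes on the array. Upon Lamin A/C Kd 4 of 203 tested probes rose (against 3.0% of all probes) and 13 fell (against 6.15%), with a median of -0.16. Upon Lamin B2 Kd 2 of 204 rose (against 0.465%) and 8 fell (against 3.65%), with a median of -0.25. MAGOH, a core protein of the exon junction complex, rose from 4.87, 4.88 and 4.98 to 7.31, 6.56 and 7.07 upon Lamin A/C Kd (2.07, SE 0.43, adjusted p = 0.0189) and to 7.56, 5.60 and 7.07 upon Lamin B2 Kd (1.83, SE 0.43, adjusted p = 0.0492). RBBP6, a 3′ end processing factor, rose by 1.33 (adjusted p = 0.00617) and 0.91 (adjusted p = 0.0421). Both knockdowns lay above the controls for each gene, with Lamin B2 Kd replicate 2 the lowest knockdown array.

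PPIH, a cyclophilin of the U4/U6 particle, fell in both knockdowns, by 0.82 and 0.84 (adjusted p = 0.0237 and 0.0404). Upon Lamin A/C Kd PHF5A, an SF3b protein, fell by 0.91 (adjusted p = 0.0473) and PAPOLA, a poly(A) polymerase, by 0.81 in 1 of its probes (adjusted p = 0.0263). LSM4 fell upon Lamin B2 Kd by 1.17 (adjusted p = 0.0241), from 8.94, 9.08 and 8.97 to 8.17, 8.05 and 7.28. Its lowest array, at 7.28, was Lamin B2 Kd replicate 3. SAP18 fell upon Lamin B2 Kd by 0.80 (adjusted p = 0.0144). TIA1, a splicing and translation regulator, rose by 0.82 upon Lamin A/C Kd (adjusted p = 0.0289), and differed by -0.58 upon Lamin B2 Kd (adjusted p = 0.115). The direct difference of TIA1 between the knockdowns was 1.40 (adjusted p = 0.00196). The calls of these genes outside the prefixes, MAGOH and RBBP6 included, were not followed without Lamin B2 Kd replicate 3 or under the other alternatives.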

How the data were processed

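The authors deposited the output of Agilent Feature Extraction 10.5 (named in the submitters' processing notes) for each array, whose processed intensity is background-subtracted and corrected for spatial trends, with flags for each spot. They also deposited a table of log2 values, shifted by the 50th percentile and centered per row, in which many rows join several probes; it served as an alternative. Here log2 intensity minus the median of each array's non-control spots was taken, spots marked as outliers were dropped and a probe's remaining spots averaged; no spot was saturated. Detection needed at least 0.5 of a probe's spots well above background. limma 3.58.1 (R 4.3.3) was fitted to all probes over all 9 arrays, and only members are printed. Tested on simulated data in which 200 probes were shifted by 1.5 (log2), the fit recovered 78.0% of them for Lamin A/C Kd, and 80.5% for Lamin B2 Kd, at an adjusted p under 0.05, with 5 and 7 unchanged probes called among 33131 and 33535.

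Members and lists were chosen with earlier results of these data known. Named genes were HNRPK and CSTF2T, the largest called rise and fall of each prefix in each knockdown, members past the 2-fold criterion, the 5 smallest adjusted p between the knockdowns and, from the other list, the 3 largest called rises and falls. Probes past the 2-fold criterion were taken up to a set number per knockdown, largest first, which left out HNRPA3 P269895. Replicates were independent cultures. The files place the arrays on hg18 but list no position for these probes, so chromosomes are from RefSeq. Precision is limited by 3 arrays per group. Probe sequences are from the deposited files and the primer from the study's supplement.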

Additional observations from a re-analysis of the deposited data

Results flagged for a closer look

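For 19 of the 162 tested member probes the knockdowns themselves differed, by limma's test of the direct contrast. Over all probes tested, 15.6% did. Lower in Lamin A/C Kd were HNRNPA3P1 (HS_3844 by -1.68 and HS_3845 by -1.41 on the log2 scale), HNRPA3 (P86660 by -1.32, P706312 by -1.15, P17163 by -1.12, P159347 by -1.11 and P77502 by -1.01), SF3B14 (-0.76), HNRPU (P51894, -0.72) and HNRPD (P123245, -0.54). Higher in Lamin A/C Kd were PRPF40B (1.03), CSTF3 (P256552, 0.93), PRPF19 (HS_2605, 0.88), SFRS14 (P332926, 0.76), HNRPH2 (0.51), HNRPLL (0.49 in P916378 and 0.42 in P225635) and HNRPA1 (0.45 in P42197 and 0.40 in P454313). Without Lamin B2 Kd replicate 3, 30 member probes differed (over all probes, 19.3% did), and 18 of the 19 were among them. The exception was HNRPLL P916378, at 0.37 with an adjusted p of 0.0573. PRPF40B was then 0.62 (adjusted p = 0.0082), CSTF3 P256552 0.65 (adjusted p = 0.0287) and PRPF19 HS_2605 0.54 (adjusted p = 0.0201). Lamin B2 Kd replicate 3 was the lowest array for every probe listed above as higher in Lamin A/C Kd. What part that array plays in these differences was not tested beyond leaving it out.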

How the results depend on the processing

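The count of member probes called upon Lamin A/C Kd (27) was 58 after normexp background correction, 4 of 88 rows in the authors' table, 14 without a filter on dim probes, 50 with only the groups compared, 65 with array weights, and 11 to 18 with 1 array left out. Over all probes the share called moved too, from 9.15% to 16.0, 3.14, 2.84, 20.6, 24.6 and 2.99 to 5.32% in that order. The member count was 17 without the HNRPA3 and HNRNPA3P1 probes, an alternative added after the data were examined. The 2-fold count (13) was 3 in the authors' table, 21 at 1.5-fold and 13 to 14 with 1 array left out. For all probes that share (2.32%) was 1.63, 9.85 and 2.24 to 2.49%. Upon Lamin B2 Kd the count (4) was 2 with the 75th percentile, 2 with quantile normalization, 15 with normexp, 0 in the authors' table, 1 without the filter, 1 with only the groups compared and 1 to 4 with 1 array left out. The share of all probes (4.12%) was 4.71, 4.44, 9.41, 0.662, 0.543, 0.0417 and 0.0745 to 6.13%. The 2-fold count (5) was 1 in the authors' table, 1 with the slide as a block, 2 with array weights, 9 at 1.5-fold, 2 with the adjusted p added and 1 to 8 with 1 array left out. For all probes that share (1.98%) was 2.48, 1.19, 1.18, 8.9, 0.951 and 1.19 to 4.25%. The slide block and leaving out Lamin B2 Kd replicate 3 are the same by construction. Between the knockdowns the count (19) was 39 with the 75th percentile, 34 with quantile normalization, 4 in the authors' table, 11 without the filter, 30 with the slide block, 11 with only the groups compared, 12 without the HNRPA3 and HNRNPA3P1 probes and 10 to 30 with 1 array left out. For all probes the share (15.6%) was 22.4, 21.7, 6.95, 6.43, 19.3, 7.82, 15.6 and 8.82 to 19.3% in that order. The cause of these shifts was not tested, apart from the lower number of arrays or rows where these are fewer.

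Of 380 values of named member probes under an alternative, 379 kept their direction. The criterion that had called the probe (adjusted p, or 2-fold with an unadjusted p for those called by that alone) was also met by 267. The exception was HNRPK P389517, at -0.07 upon Lamin A/C Kd in the authors' table, where it is joined with P380919. Left-out arrays kept the same probes tested, and the remaining arrays of the group are assumed to vary like the others.

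The replicate numbers do not pair the samples: same-numbered arrays correlated between -0.0856 and 0.148 after removal of group means. With the replicate block the counts were 18 upon Lamin A/C Kd (13 at 2-fold), 1 upon Lamin B2 Kd (5 at 2-fold) and 14 between the knockdowns. Over all probes the shares were then 4.96% (2.37%), 0.74% (2.03%) and 10.8%.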
